A study of Mus musculus with 28 samples.

Results

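Border-associated macrophages were followed through 9 of their marker genes, Mrc1, Cd163, Lyve1, Pf4, F13a1, Cbr2, Ms4a7, Folr2 and Clec10a, out of 48587 genes in the count table. The genes are known markers of these cells, and they were selected on their levels in these same libraries, so their levels and their calls are given here as a description and support nothing. The samples were microglia sorted from mouse hippocampus as CD11b+CD45low cells, after a dump gate whose antigens included CD3, CD45R, Ly6C and Ly6G, with RNA-seq of 1 library per mouse. The 28 mice, all 16 weeks old, fell into 6 groups: wild-type (WT) littermates and heterozygous 5xFAD mice, each kept under specific pathogen-free (SPF) conditions, kept germ-free (GF), or kept under SPF conditions with antibiotics (ABX). The 5xFAD mice carried mutant human APP and PS1 transgenes driven by the neuron-specific Thy-1 promoter on a C57BL/6J background, and all mice were male. The antibiotics were vancomycin, cefoxitin, gentamicin and metronidazole in the drinking water for 8 weeks. GF mice of both genotypes came from another facility than the SPF and ABX mice, so that housing and facility cannot be told apart. The WT libraries numbered 5 under SPF, 5 under ABX and 4 under GF conditions, and the 5xFAD libraries 6 under ABX, 3 under SPF and 5 under GF conditions.

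Border-associated macrophages are the resident macrophages of the meninges, the perivascular spaces and the choroid plexus. They share much of their embryonic origin with microglia but lie outside the brain parenchyma, where they take up material from blood, cerebrospinal fluid and interstitial fluid through scavenger receptors and lectins. They are usually sorted with more CD45 on their surface than microglia, and their markers are low in parenchymal microglia.

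Each library held between 14441610 and 29977395 reads in genes (median 19499300), and these totals did not separate the groups. The sorted cells had the genes of microglia: the summed level of 9 microglia markers (P2ry12, Tmem119, Sall1, Cx3cr1, Fcrls, Siglech, Gpr34, Olfml3 and Csf1r) lay between 37373 and 54025 CPM (counts-per-million of the scaled library total) in every library, while the 9 macrophage markers together reached 272 CPM at most. The microglia sum was 45156 CPM or more in all WT libraries and 44906 CPM or less in all 5xFAD libraries, and its part in the marker levels was not tested. Neutrophil genes were present in 4 libraries, which were the 3 SPF 5xFAD libraries, with 60.7 to 269 summed CPM over 8 markers, and mouse FAD_ABX_1151, with 141, against at most 1.47 in the other libraries. These same 4 libraries carry a 4-digit mouse number in their description label, all SPF WT and ABX WT libraries carry a 3-digit number, and all GF libraries and the other 5 ABX 5xFAD libraries carry a group name. What the label forms stand for is not given, but 5xFAD and WT differ in form under SPF and ABX conditions, so form and genotype cannot be told apart there. GF WT mice also differ in form from SPF WT and ABX WT mice, and GF 5xFAD from SPF 5xFAD mice. Form and housing therefore cannot be told apart in those comparisons. Mouse FAD_GF_201 is 5xFAD by its title and genotype label and WT by its description label, and it was kept as 5xFAD. Nothing in the labels says which mice shared a litter or a sorting day, and p-values measure the spread between the mice as labelled.

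All 9 genes lie on autosomes and are protein coding (GENCODE M21 on GRCm38). Mrc1 is at chr2:14229392-14332057 on the plus strand and Cd163 at chr6:124304656-124330527 on the plus strand. Lyve1 is at chr7:110850607-110863239 and Folr2 at chr7:101839988-101857194, both on the minus strand. Pf4 is at chr5:90772435-90773383 on the plus strand and F13a1 at chr13:36867178-37050244 on the minus strand. Cbr2 is at chr11:120729489-120732114 on the minus strand and Clec10a at chr11:70156197-70170834 on the plus strand. Ms4a7 is at chr19:11321039-11336146 on the minus strand. The library kit does not mark strand, so reads from a marker and from any transcript antisense to it cannot be told apart, and Clec10a has a close paralog, Mgl2, with which its short reads may be confused.

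RefSeq start sites were found for 7 of the 9 genes (GRCm38.p6, 250 bases before to 50 after the start). The 5 promoters shown are those of Mrc1, the gene read in all libraries, and of the pairs of markers whose levels went most closely together from mouse to mouse, Pf4 with Ms4a7 and F13a1 with Cbr2. They are written 5′ to 3′ on the strand of the gene, and capitals mark matches on either strand to GAGGAA, a core of sites for PU.1, the factor that macrophages and microglia share, and to TGCTGA, part of the site of MAF factors. They lie at chr2:14229164-14229463 (plus strand, Mrc1), chr5:90772185-90772484 (plus strand, Pf4), chr19:11336097-11336396 (minus strand, Ms4a7), chr13:37050195-37050494 (minus strand, F13a1) and chr11:120731972-120732271 (minus strand, Cbr2).
Mrc1: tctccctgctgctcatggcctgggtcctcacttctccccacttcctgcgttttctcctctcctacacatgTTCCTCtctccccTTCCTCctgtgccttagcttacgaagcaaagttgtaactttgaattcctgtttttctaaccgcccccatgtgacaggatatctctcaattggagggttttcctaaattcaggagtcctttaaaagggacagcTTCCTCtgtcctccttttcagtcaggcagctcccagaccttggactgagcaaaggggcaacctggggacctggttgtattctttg
Pf4: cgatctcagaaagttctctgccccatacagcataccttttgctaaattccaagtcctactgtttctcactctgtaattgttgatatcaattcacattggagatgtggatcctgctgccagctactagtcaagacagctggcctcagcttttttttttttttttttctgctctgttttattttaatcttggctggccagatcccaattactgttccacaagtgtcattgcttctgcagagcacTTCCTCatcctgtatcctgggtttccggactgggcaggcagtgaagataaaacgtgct
Ms4a7: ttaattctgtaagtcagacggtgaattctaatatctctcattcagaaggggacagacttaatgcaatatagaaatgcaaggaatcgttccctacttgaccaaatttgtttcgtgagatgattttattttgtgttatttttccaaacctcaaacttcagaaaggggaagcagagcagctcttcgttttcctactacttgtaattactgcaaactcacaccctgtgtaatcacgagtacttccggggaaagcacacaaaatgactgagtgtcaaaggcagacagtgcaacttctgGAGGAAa
F13a1: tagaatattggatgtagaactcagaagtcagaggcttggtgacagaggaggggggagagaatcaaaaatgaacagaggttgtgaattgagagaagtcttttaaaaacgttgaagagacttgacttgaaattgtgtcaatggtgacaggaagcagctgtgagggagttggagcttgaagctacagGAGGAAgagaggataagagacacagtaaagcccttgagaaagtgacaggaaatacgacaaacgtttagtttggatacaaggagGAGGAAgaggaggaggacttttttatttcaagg
Cbr2: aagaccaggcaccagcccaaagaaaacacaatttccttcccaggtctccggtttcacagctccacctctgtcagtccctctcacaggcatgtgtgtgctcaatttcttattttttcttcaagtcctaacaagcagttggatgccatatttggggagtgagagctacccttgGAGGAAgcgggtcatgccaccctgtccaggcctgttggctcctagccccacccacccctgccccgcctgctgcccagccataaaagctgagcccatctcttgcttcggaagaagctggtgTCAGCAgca
GAGGAA was found in 5 of the 7 promoters and in 28.3% of all 32851 RefSeq promoters of this length in the table. Mrc1 held 3 matches, F13a1 held 2, and Pf4, Cbr2 and Ms4a7 held 1 each. In Pf4 the match ended 3 bases before the start site, and in Ms4a7 it began 43 bases after it. TGCTGA was found in the promoters of Cbr2 and Folr2 and in 19.5% of all promoters, with no overlap with the other motif. The TATA box letters TATAAA were found in 0 of the 7 and in 13.6% of all. These matches are a description of the windows only.

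The markers were highest in antibiotic-treated 5xFAD mice. Their summed level was 3.38 to 8.15 CPM in SPF WT mice (mean 5.96 ± 1.91, SD, n = 5) and 3.70 to 5.86 CPM in ABX WT mice (4.79 ± 1.01, n = 5). It was 10.7 to 43.5 CPM in GF WT mice (30.0 ± 15.0, n = 4), 17.2 to 30.4 CPM in SPF 5xFAD mice (25.1 ± 6.97, n = 3) and 11.8 to 87.4 CPM in GF 5xFAD mice (41.2 ± 31.7, n = 5). In ABX 5xFAD mice it ran from 35.3 over a median of 160 to 272 CPM (163 ± 93.6, n = 6). SPF WT and ABX WT libraries therefore lay below every library of the other 4 groups, and the lowest ABX 5xFAD library, mouse FAD_ABX_1151, lay within the range of the GF groups. The SPF WT and ABX WT libraries are also all the libraries with a 3-digit label, at 3.38 to 8.15 CPM. Libraries of the other label forms had 10.7 CPM or more, so group and label form cannot be told apart in this split. Without mouse FAD_GF_201 the GF 5xFAD mice reached 59.7 CPM at most. In a bulk sample, fewer cells of a type and less RNA per cell cannot be told apart. Of 45 gene values each, 25 were at 0 reads in SPF WT mice and 27 in ABX WT mice, against 4 of 36 in GF WT, 1 of 27 in SPF 5xFAD, 1 of 45 in GF 5xFAD and 0 of 54 in ABX 5xFAD mice. ABX 5xFAD mice had the highest mean of each of the 9 genes. For Mrc1, Cd163, Lyve1, F13a1 and Cbr2 the gap to the next group exceeded the larger SD of both groups, and for Pf4, Ms4a7, Folr2 and Clec10a it did not.

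**Figure D1:**
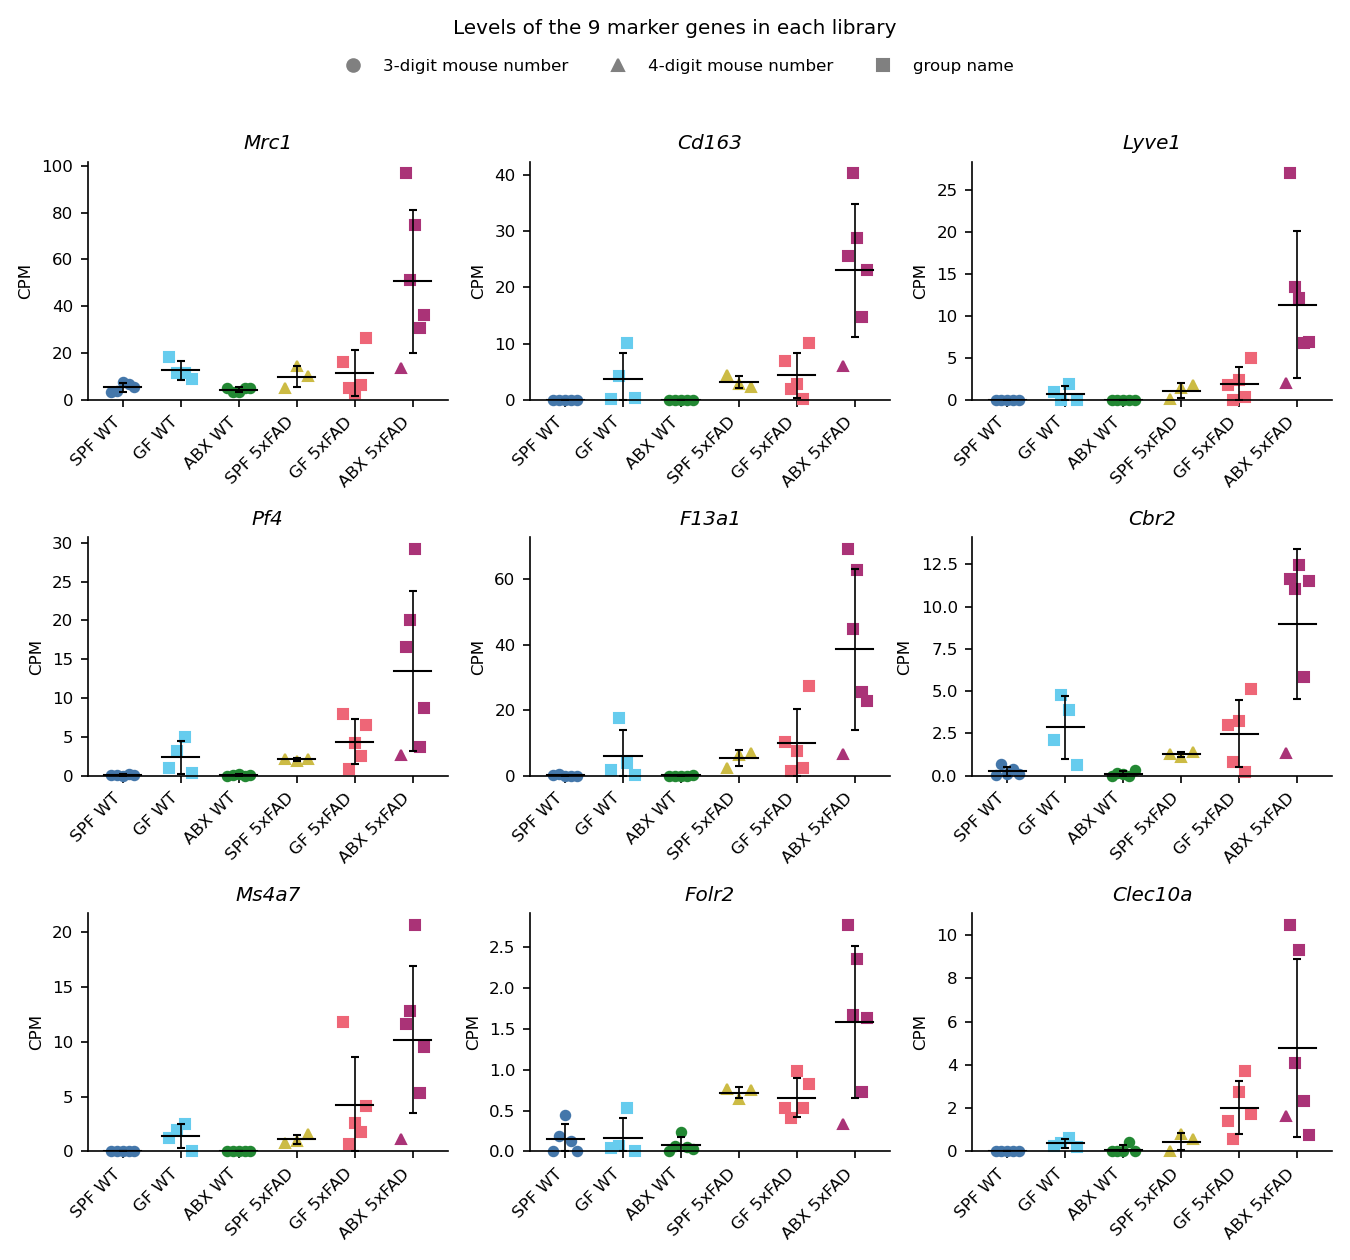
CPM of each marker in each of the 28 libraries, 1 point per mouse, by group; horizontal lines and error bars are the group mean and SD, and the point shape gives the form of the description label. The 6 ABX 5xFAD libraries hold the highest mean of every gene, with mouse FAD_ABX_1151 (triangle) lowest in 8 of the 9, and SPF WT and ABX WT libraries sit at or near 0 for all genes but Mrc1.

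Scavenger and lectin receptors are taken first. Mrc1 encodes the mannose receptor CD206, which binds mannose-rich glycans and takes them up. It was at 3.18, 3.80, 7.54, 6.72 and 5.47 CPM in the SPF WT mice and at 4.92, 3.30, 3.21, 5.15 and 5.17 CPM in the ABX WT mice. These 2 groups overlapped. The GF WT mice had 18.3, 11.4, 11.6 and 8.88 CPM, the SPF 5xFAD mice 5.27, 14.6 and 10.1 CPM and the GF 5xFAD mice 16.1, 5.03, 2.86, 6.43 and 26.4 CPM. GF WT mice were thus all above SPF WT and ABX WT mice, whereas the GF 5xFAD mice spread from below the SPF WT range to above every GF WT mouse. ABX 5xFAD mice ran from 13.6 over a median of 43.6 to 97.0 CPM (50.6 ± 30.7, n = 6), all above ABX WT mice. Mrc1 was the only marker with at least 10 reads in every library.

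Cd163 encodes the receptor for haptoglobin-hemoglobin complexes. No read of it was found in any SPF WT or ABX WT library, which allows up to 0.0265 CPM over the SPF WT group. GF WT mice had 0.0895, 4.22, 10.0 and 0.322 CPM and SPF 5xFAD mice had 4.40, 2.75 and 2.26 CPM. GF 5xFAD mice had 6.89, 2.00, 2.74, 0.176 and 10.1 CPM. The GF groups thus overlapped and each held libraries near 0 beside libraries near 10 CPM. ABX 5xFAD mice ran from 5.98 over a median of 24.3 to 40.3 CPM (23.1 ± 11.8, n = 6), at least 771-fold above ABX WT mice by pooled reads. Such bounds, and all folds given with an exact interval, compare the reads of a group pooled per pooled library total, with a floor of 3 reads over a group at 0, and so differ from ratios of the group means of CPM. Counting intervals and floors cover counting error only, since PCR copies were not marked.

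Lyve1 encodes a hyaluronan receptor of perivascular and meningeal macrophages that lymphatic endothelium also uses. It too had 0 reads in all 10 SPF WT and ABX WT libraries. GF WT mice had 0.895, 0, 1.88 and 0 CPM, SPF 5xFAD mice 0.0543, 1.38 and 1.77 CPM, and GF 5xFAD mice 1.76, 0, 2.33, 0.308 and 5.03 CPM. ABX 5xFAD mice ran from 1.97 over a median of 9.46 to 27.0 CPM (11.3 ± 8.70, n = 6), at least 407-fold above ABX WT mice by pooled reads. The lymphatic markers Ccl21a and Mmrn1 were at 0 in all ABX libraries of both genotypes, Flt4 and Pdpn were at 0 in all ABX WT but not in all ABX 5xFAD libraries, and the summed level of the 6 lymphatic genes was 7.01 to 17.4 CPM there and 6.35 to 20.0 CPM in ABX WT mice. Their part in the Lyve1 level was not tested.

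Clec10a, a lectin for galactose-type sugars, had 0 reads in SPF WT mice and reads in 1 of 5 ABX WT mice, at 0.434 CPM. It was at 0.193 to 0.644 CPM in GF WT, 0 to 0.787 CPM in SPF 5xFAD and 0.590 to 3.70 CPM in GF 5xFAD mice. ABX 5xFAD mice ran from 0.781 over a median of 3.22 to 10.5 CPM (4.78 ± 4.13, n = 6) and overlapped the GF 5xFAD mice. Folr2, the folate receptor beta, was at 0 to 0.447 CPM in SPF WT, 0 to 0.536 CPM in GF WT and 0 to 0.238 CPM in ABX WT mice. It was at 0.639 to 0.760 CPM in SPF 5xFAD and 0.408 to 0.980 CPM in GF 5xFAD mice, above every ABX WT library in both. ABX 5xFAD mice had 0.338 to 2.77 CPM (1.58 ± 0.928, n = 6), with mouse FAD_ABX_1151 at the lower end.

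Of the secreted products, F13a1 encodes the A subunit of coagulation factor XIII, a transglutaminase that macrophages and platelets make. It had 0.0815, 0.422, 0, 0 and 0 CPM in SPF WT mice and reads in 1 of 5 ABX WT mice, at 0.263 CPM. GF WT mice had 1.74, 17.7, 3.75 and 0.258 CPM, SPF 5xFAD mice 2.44, 6.39 and 7.04 CPM, and GF 5xFAD mice 10.4, 1.50, 7.60, 2.25 and 27.5 CPM. In the GF groups the mice WT_GF_229 and FAD_GF_201 stood above the others of their groups. ABX 5xFAD mice ran from 6.60 over a median of 35.1 to 69.2 CPM (38.6 ± 24.5, n = 6), and the mean was 732 times that of ABX WT mice, which rests on 8 reads. Pf4, the chemokine CXCL4, was at 0 to 0.258 CPM in SPF WT and 0 to 0.238 CPM in ABX WT mice. It was at 0.386 to 5.04 CPM in GF WT, 1.92 to 2.20 CPM in SPF 5xFAD and 0.816 to 7.90 CPM in GF 5xFAD mice. ABX 5xFAD mice ran from 2.71 over a median of 12.7 to 29.2 CPM (13.5 ± 10.3, n = 6), 168 times the mean of ABX WT mice. Platelets also carry Pf4 and F13a1, and of 7 platelet genes Ppbp and Gp1bb were at 0 in all ABX libraries of both genotypes. Gp6 was at 0 in all ABX WT but not in all ABX 5xFAD libraries, and the summed level of the 7 was 20.4 to 41.2 CPM there and 32.8 to 39.3 CPM in ABX WT mice. The part of these genes in the Pf4 and F13a1 levels was not tested.

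Cbr2 encodes a carbonyl reductase and Ms4a7 a membrane protein of the MS4A family. Cbr2 was at 0.0407 to 0.690 CPM in SPF WT and 0 to 0.362 CPM in ABX WT mice, and at 0.644 to 4.78 CPM in GF WT mice. SPF 5xFAD mice had 1.08 to 1.40 CPM and GF 5xFAD mice 0.220 to 5.14 CPM. In 5 of the 6 ABX 5xFAD mice it lay between 5.85 and 12.5 CPM and in mouse FAD_ABX_1151 it was at 1.35 CPM. Ms4a7 had 1 read in SPF WT mice and 1 read in ABX WT mice. GF WT mice had 1.25, 1.92, 2.52 and 0 CPM, SPF 5xFAD mice 0.815, 0.935 and 1.56 CPM, and GF 5xFAD mice 11.8, 0.635, 2.61, 1.76 and 4.15 CPM. It was lowest in mouse FAD_ABX_1151 among ABX 5xFAD mice, at 1.13 CPM, and highest at 20.7 CPM (10.2 ± 6.70, n = 6). By reads pooled over each group per pooled library total, Ms4a7 was 1071-fold higher in ABX 5xFAD than in ABX WT mice, with an exact Poisson interval of 192 to 42323 that rests on the 1 read of the ABX WT mice.

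Mouse FAD_ABX_1151 set the lower end of the ABX 5xFAD group for 8 of the 9 genes, all but Clec10a. It lay within the range of the 3 SPF 5xFAD libraries for Mrc1, F13a1, Cbr2 and Ms4a7. Without it, the other 5 ABX 5xFAD libraries, which share the label form of the GF libraries, lay above all SPF 5xFAD libraries for 7 genes, all but Folr2 and Clec10a. The mouse was set apart on these same values, and the share of all genes with such a gap was not counted. Nothing is therefore read from the 7. The summed level of the other 5 libraries was 95.6 to 272 CPM (mean 188), and that of mouse FAD_ABX_1151 was 35.3 CPM.

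Levels of different genes can be set side by side per kilobase of exon. In ABX 5xFAD mice Pf4 had the highest level on that scale, at 18.7 ± 14.3 CPM per kb (SD, n = 6). F13a1 had 9.82 ± 6.25, Mrc1 7.94 ± 4.82, Cbr2 6.78 ± 3.34, Cd163 4.22 ± 2.16 and Lyve1 3.88 ± 2.98 CPM per kb. Ms4a7 had 2.28 ± 1.50, Clec10a 1.65 ± 1.43 and Folr2 1.02 ± 0.600 CPM per kb, and neighbours in this order overlapped within their SDs. The order was different in SPF WT mice, where Mrc1 led at 0.838 ± 0.292 CPM per kb (n = 5), before Cbr2 at 0.199 ± 0.206 and Pf4 at 0.131 ± 0.137. Mrc1 made up 42.5 to 81.1% of the summed CPM per kb of the 9 genes in SPF WT mice and 46.8 to 100% in ABX WT mice. That share was 11.1 to 53.5% in GF WT, 11.9 to 24.7% in SPF 5xFAD, 3.19 to 20.3% in GF 5xFAD and 11.0 to 18.7% in ABX 5xFAD mice. The low marker signal of SPF WT and ABX WT mice was thus largely Mrc1. In the ABX 5xFAD mice, whose summed levels ranged 7.70-fold, Pf4 made up 18.3 to 42.0%, F13a1 13.7 to 22.8%, Cbr2 8.95 to 20.6% and Cd163 5.39 to 10.1%. Lyve1 made up 4.29 to 10.7%, Ms4a7 2.22 to 5.05%, Folr2 1.48 to 2.49% and Clec10a 0.638 to 4.95% there. Mouse FAD_ABX_1151, with the lowest sum, had the highest Mrc1 share of this group, at 18.7%.

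**Figure D2:**
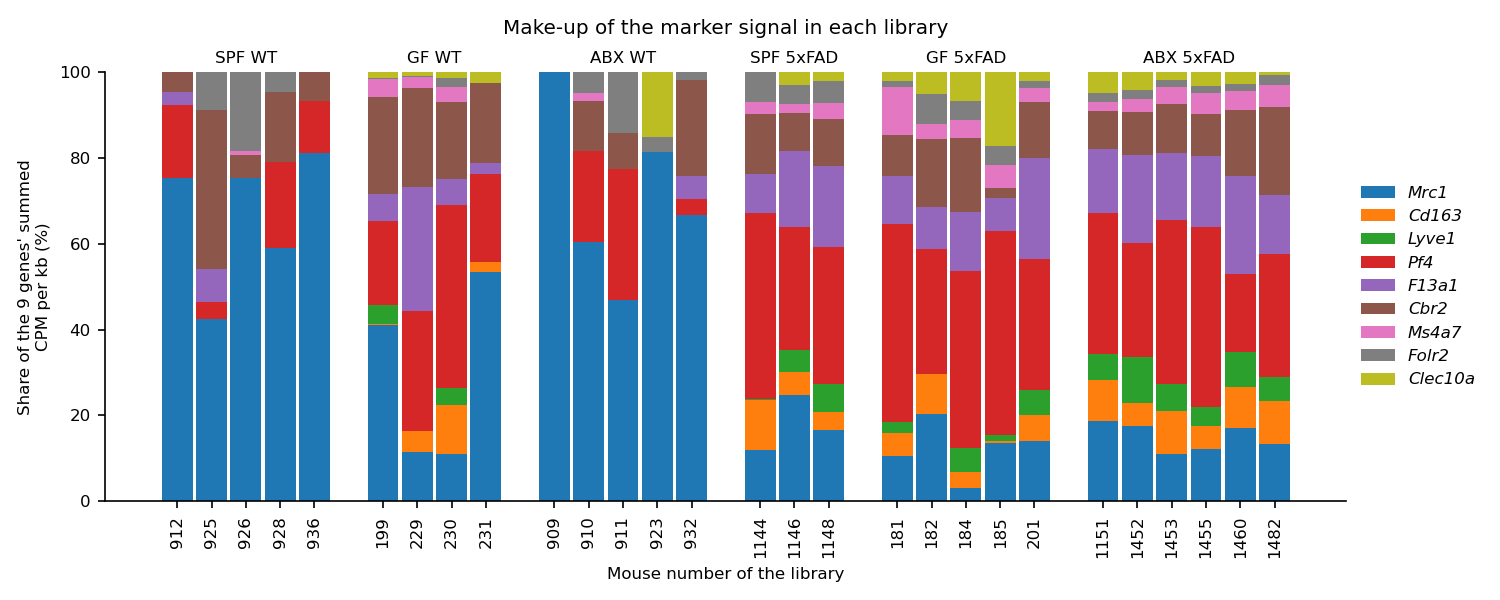
Share of each marker in the summed CPM per kb of the 9 genes, in percent, 1 bar per library with its mouse number. Mrc1 takes 42.5 to 100% in the SPF WT and ABX WT libraries and 11.0 to 18.7% in the ABX 5xFAD libraries, where Clec10a varies from 0.638 to 4.95%.

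Whether 5xFAD mice differ from WT mice in these genes was compared within each housing, with edgeR's quasi-likelihood test over 15298 genes and a Benjamini-Hochberg adjusted p under 0.05 as the threshold. All 9 markers passed the low-count filter, Mrc1 with reads in every library and the other 8 through the groups in which they are high, so the counts of calls describe these genes and nothing is read from them. Under SPF conditions 6 of the 9 were called higher in 5xFAD mice (Cd163, Lyve1, Pf4, F13a1, Ms4a7 and Clec10a), where 4.57% of all genes tested were called. In GF mice Ms4a7, Folr2 and Clec10a had an unadjusted p under 0.05, as did 27.9% of all genes. By adjusted p, 0 of the 9 were called in GF mice, where 15.6% of all genes were. This count was 0 without mouse FAD_GF_201 and 1 without mouse WT_GF_230. The mitochondrial share of reads was 0.168 to 0.290% in GF 5xFAD mice and 0.111 to 0.147% in GF WT mice, and the 10 most read genes took 13.4 to 15.0% against 11.0 to 12.5%. Astrocyte genes summed to 167 to 200 CPM in GF 5xFAD and 225 to 291 CPM in GF WT mice, and blood endothelial genes to 10.4 to 30.0 against 33.6 to 40.1 CPM. T cell genes summed to 0.952 to 3.20 CPM in GF 5xFAD and 0 to 0.626 CPM in GF WT mice. None of these ranges overlapped, and their part in this comparison, for the markers and for other macrophage genes, was not tested. In ABX mice all 9 were called higher in 5xFAD mice, where 14.4% of all genes were. The 9 calls in ABX mice were made under each alternative, including without mouse FAD_ABX_1151, and the 6 calls under SPF conditions became 4 without mouse FAD_SPF_1146. The call of Lyve1 was made in 27 of 34 alternatives. With the SPF libraries alone in the fit they were 4 of the 7 markers that passed the filter there. The neutrophil signal of the SPF 5xFAD libraries goes with the SPF comparison, as do sums of 6 mural cell genes, at 4.03 to 8.17 CPM in SPF 5xFAD and 1.01 to 1.54 CPM in SPF WT mice, and of monocyte genes. The sum of 7 platelet genes was lower in SPF 5xFAD mice, at 25.1 to 26.9 CPM, than in SPF WT mice, at 29.5 to 38.7 CPM. The part of all these sums in the SPF comparison was not tested. In the ABX mice the neutrophil signal was at 0 to 0.783 summed CPM in the 5 libraries that carried the most marker signal.

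Housing was compared in WT mice. Between GF and SPF WT mice 6 of the 9 markers were called higher in GF mice (Cd163, Pf4, F13a1, Cbr2, Ms4a7 and Clec10a), where 1.62% of all genes were called. The call of Clec10a was close to the threshold (adjusted p = 0.0489, edgeR quasi-likelihood test) and was made in 16 of 34 alternatives, with adjusted p up to 0.130. The count of 6 was 3 without mouse WT_GF_229 and 3 without mouse WT_GF_230. With only these groups in the fit 2 of the 9 passed the low-count filter and both were called, while the others were not tested. Mitochondrial genes took 0.111 to 0.147% of the reads in GF WT mice, against 0.162 to 0.285% in SPF WT and 0.179 to 0.347% in ABX WT mice, without overlap, and the part of this difference in both comparisons with GF WT mice was not tested. Between ABX and GF WT mice 5 were called lower in ABX mice (Cd163, Pf4, F13a1, Cbr2 and Ms4a7), where 6.88% of all genes were called. This count was 1 with limma voomWithQualityWeights and 7 without mouse FAD_ABX_1151 or mouse FAD_GF_201, and with only these groups in the fit 2 of the 9 passed the filter and both were called. Between ABX and SPF WT mice, which share the label form, edgeR called 0 of the 9, as it called 0% of all genes, but Cd163 and Lyve1 had 0 reads in both groups and could not be compared. At an unadjusted p under 0.05, 1 marker, Clec10a, and 687 genes passed, and DESeq2 and limma voomWithQualityWeights called 0 markers. SPF WT mice are the controls of both the GF and the ABX comparison.

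In 5xFAD mice the markers were higher on average under ABX than in the other housings, and few passed the threshold. Between 5xFAD mice in GF and SPF housing 0 of the 9 were called, where 12.8% of all genes were. An unadjusted p under 0.05 was found for 1 of the 9 and for 26.8% of all genes. Between ABX and GF 5xFAD mice Mrc1 alone was called, 4.45 times higher by the means, where 10.6% of all genes were called. The other 8 were 2.36 to 6.01 times higher by the means, and the groups overlapped for all 9, Mrc1 included. This count was 5 without mouse FAD_GF_201, whose labels conflict, and 2 without mouse FAD_ABX_1151, FAD_ABX_1482 or FAD_GF_181 or any of the 4 GF WT mice. It was 4 without a low-count filter, 6 with limma voomWithQualityWeights and 0 with only these groups in the fit. The 10 most read genes took 10.9 to 13.2% of the reads in ABX and 13.4 to 15.0% in GF 5xFAD mice, and astrocyte genes summed to 213 to 318 CPM against 167 to 200 CPM, both without overlap, and their part was not tested. Between ABX and SPF 5xFAD mice edgeR called 0 of the 9 markers and 0% of all genes, with a smallest adjusted p of 0.383 over all genes. By the means the 9 were 2.20 to 10.6 times higher in ABX mice, 8 of them had an unadjusted p under 0.05, and 1085 of all genes did. DESeq2 called 1 and limma voomWithQualityWeights 7 of the 9, and edgeR called 1 without mouse FAD_ABX_1151. Within 1 label form there is 1 ABX 5xFAD library, so the comparison with SPF 5xFAD mice cannot be made apart from that mouse.

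The effect of the genotype was then compared between housings as an interaction. The 5xFAD effect was larger under ABX than in GF mice for 7 of the 9 markers, all but Folr2 and Clec10a, where 1.76% of all genes were called. This count was 3 with limma voomWithQualityWeights and 6 to 8 when mice were left out singly, and the call of Lyve1 was made in 24 of 35 alternatives. Between GF and SPF mice the effect was called for 0 of the 9 markers and 0% of all genes, with 7 of the 9 and 1304 genes at an unadjusted p under 0.05, all 7 with a smaller effect in GF mice, and DESeq2 called 1. Between ABX and SPF mice Cd163 and Lyve1 had 0 reads in both WT groups, so their effects could not be compared. Of the other 7 markers 0 were called there, as were 0% of all genes, with 3 of the 7 and 1032 genes at an unadjusted p under 0.05, and DESeq2 and limma voomWithQualityWeights called 0 markers.

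A further 35 genes of border-associated macrophages, which the choice of the 9 markers did not use, were read in the same fit. Of them 34 passed the low-count filter, many through the groups in which they are high, and the list was chosen with results of these data known, so its counts and medians are a description too. Some are also genes of microglia, and Stab1, Maf, Hpgd, Slc40a1 and Gas6 were at 171 CPM or more in the mean of every group. Of the 35, 10 had 0 reads in all SPF WT libraries, 12 in all ABX WT libraries, 1 in GF WT libraries and 0 in the 5xFAD groups. In ABX mice 21 were higher and 3 lower in 5xFAD mice, where 14.4% of all genes were called, with a median log2 fold change of 2.51 over the 34 against -0.013 over all genes. The 6 with the largest fold change had 0 reads in ABX WT mice, and their bounds are again of pooled reads. Cd209a, a C-type lectin, was at 17.4 CPM in ABX 5xFAD mice, at least 633-fold above the floor, and Mgl2, the paralog of Clec10a, at 16.4 CPM, at least 591-fold. Pla2g2d, a secreted phospholipase, was at least 224-fold, Clec12a, an inhibitory lectin receptor, at least 197-fold, Colec12, a scavenger receptor, at least 193-fold and Cd209f at least 150-fold higher. The 3 lower genes, named after their values were seen, were Maf, a transcription factor, with a log2 fold change of -0.76 ± 0.12 (SE), the iron exporter Slc40a1 with -0.51 ± 0.14 and the prostaglandin dehydrogenase Hpgd with -0.43 ± 0.080. Cd209 genes are close paralogs of each other, as are Clec10a and Mgl2, and reads may be split between them.

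In SPF mice 9 of the 34 were higher and 1 lower in 5xFAD mice, where 4.57% of all genes were called, with a median log2 fold change of 1.46. Clec12a was at 1.97 CPM in SPF 5xFAD mice, at least 75.0-fold above the floor, Cd38, an NAD-consuming surface enzyme, at least 24.3-fold and Cd209f at least 17.1-fold. Colec12, with 94 reads against 2, was 92.7-fold higher with an exact interval of 25.0 to 777, the small secreted Wfdc17 was 27.4-fold higher by the means (log2 fold change 4.78 ± 0.59) and Fcna, a ficolin, 23.4-fold. Maf was the lower gene, at -0.54 ± 0.15, named after its value was seen. The 10 calls were 5 without mouse WT_SPF_912 or WT_SPF_936 or mouse FAD_SPF_1146, 6 without mouse WT_SPF_926 or mouse FAD_SPF_1148, and 19 with limma voomWithQualityWeights. The neutrophil signal of the SPF 5xFAD libraries moved with these genes too. In GF mice 5 were higher and 3 lower, with a median of 0.23, where 15.6% of all genes were called. The mitochondrial share, the share of the 10 most read genes and the astrocyte, blood endothelial and T cell sums also separated these groups. Cd209a was 77.9 times higher by the means in GF 5xFAD than in GF WT mice (log2 fold change 6.16 ± 1.20, adjusted p = 0.000987, edgeR quasi-likelihood test). Wfdc17 was 9.54, Colec12 6.07 and Siglec1, a sialic acid receptor, 3.07 times higher, and Slc40a1 and Stab1, a clearance receptor, were lower, at 0.521 and 0.557 of the WT mean. Maf was the third lower gene, named after its value was seen, and 12 genes passed without mouse FAD_GF_201.

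In WT mice 5 of the 34 were higher in GF than in SPF mice, where 1.62% of all genes were called. Clec12a was at least 82.0-fold, Cd38 at least 26.5-fold and Cd209f at least 20.2-fold higher, Mgl2 33.0 times higher by the means, and Colec12 50.6-fold with an exact interval of 13.5 to 427. This count of 5 depended on single mice. It was 1 without mouse WT_SPF_912 or mouse WT_GF_229, 2 without mouse WT_SPF_936 or WT_GF_230, 3 without mouse WT_SPF_925, WT_SPF_926, WT_SPF_928, WT_GF_231, WT_ABX_910, FAD_SPF_1146, FAD_SPF_1148, FAD_GF_201, FAD_ABX_1452 or FAD_ABX_1453, and 8 without mouse WT_GF_199 or FAD_ABX_1151. ABX WT mice had 10 lower and 1 higher of the 34 against GF WT mice, where 6.88% of all genes were called. Clec12a was at least 71.2-fold, Mgl2 at least 60.4-fold, Colec12 at least 29.3-fold, Cd209f at least 17.6-fold and Timd4, a receptor for phosphatidylserine, at least 12.6-fold lower, Cd38 was 69.0-fold lower on 1 read against 51 (exact interval 11.8 to 2776), and the gene that was higher was Maf (log2 fold change 0.64 ± 0.14, named after its value was seen). The 11 calls were 4 without mouse WT_ABX_911, 5 without mouse WT_ABX_909, WT_GF_229 or WT_GF_230, 6 without mouse WT_ABX_910 and 7 without mouse WT_ABX_923. Between ABX and SPF WT mice edgeR called 0 of the 34, some of which had 0 reads in both groups, with 1 at an unadjusted p under 0.05, and DESeq2 and limma voomWithQualityWeights also called 0.

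In 5xFAD mice, 9 of the 34 were higher and 0 lower in ABX than in GF mice, where 10.6% of all genes were called. This count was 2 with only these groups in the fit and 14 without a filter or with library size alone. The largest differences were those of Timd4, 41.6 times higher by the means on 275 reads against 5, the chemokine Ccl8, 38.0 times higher on 464 reads against 10, and Cd209f, 8.55 times higher. Ccr1, a chemokine receptor, was 2.58, the syndecan Sdc4 1.78 and Igfbp4, a growth factor binding protein, 1.64 times higher. Between GF and SPF 5xFAD mice Cd209a was 15.8 times higher in GF mice (log2 fold change 3.96 ± 1.12) and Sdc4, Slc40a1 and Maf were lower, at 0.506, 0.700 and 0.744 of the SPF mean. These 4 of 34 calls lie near the 12.8% of all genes called, so nothing about the list is read from them. They were 0 without mouse FAD_SPF_1146 or FAD_SPF_1148, 1 without mouse FAD_SPF_1144, FAD_GF_181 or FAD_GF_182, and 2 without mouse FAD_GF_184, WT_SPF_925, WT_SPF_928, WT_SPF_936 or WT_GF_231. Between ABX and SPF 5xFAD mice 0 of the 34 were called by edgeR. At an unadjusted p under 0.05, 17 of the 34 passed, as did 7.09% of all genes. DESeq2 called 0, limma voomWithQualityWeights called 7, and edgeR called 3 without mouse FAD_ABX_1151. The 5xFAD effect was larger in ABX than in GF mice for 9 of the 34 (Timd4, Mgl2, Clec12a, Cd209f, Pla2g2d, Cd38, Colec12, Stab1 and Tgfbi, of which the last 3 were named after their values were seen), where 1.76% of all genes were called, and was called for 0 in the other interactions, of which that of ABX with SPF mice could not be read for genes with 0 reads in both WT groups, with 7 and 11 at an unadjusted p under 0.05 and 0 by DESeq2 and limma voomWithQualityWeights. The 9 calls were 5 without mouse WT_GF_229, WT_ABX_910, WT_ABX_911 or FAD_GF_185.

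**Figure D3:**
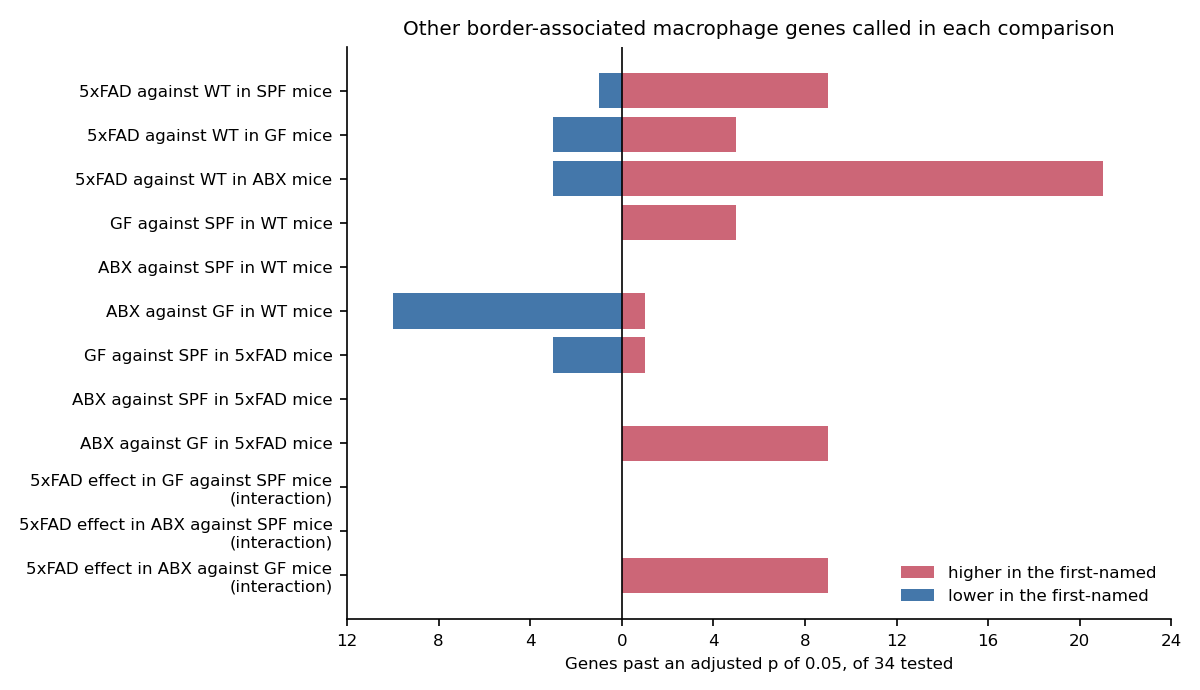
Number of the 34 other border-associated macrophage genes past an adjusted p of 0.05 in each of the 12 comparisons, to the right for higher and to the left for lower in the group named first (for an interaction, a larger or smaller 5xFAD effect). The ABX comparison of 5xFAD with WT mice holds the most calls, 21 higher and 3 lower, and both comparisons of ABX with SPF mice hold 0.

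The markers were then compared from mouse to mouse within groups, as the log2 CPM minus its group mean over the 28 libraries. All 36 pairs had a positive Pearson's r, from 0.067 to 0.810 with a median of 0.544, and Spearman's rho ran from 0.163 to 0.794 with a median of 0.541. In 100000 permutations within groups, 22 of the 36 pairs had an adjusted p under 0.05 for r and 23 for rho. The markers were selected on their levels in these same libraries, so these counts are a description and nothing is read from them. Cd163 and Lyve1 had 0 reads in all SPF WT and ABX WT libraries, which therefore show no spread between mice for them. Their pairs thus rest on the other groups, although all 28 libraries enter. Pf4 and Ms4a7 had the highest r, 0.810 (rho 0.753, permutation p adjusted over the 36 pairs 0.00072 for r and 0.00096 for rho), and 0.740 without the 2 libraries farthest from the median of Pf4. F13a1 and Cbr2 had an r of 0.803 (rho 0.794), and 0.796 without the 2 farthest libraries. The lowest values were those of Clec10a with Cbr2, at 0.067, and with Cd163, at 0.071. Clec10a passed the threshold for r with Lyve1 alone among the other 8 markers, and Mrc1 with Lyve1, F13a1 and Ms4a7. Without the 2 farthest libraries of each pair the median r was 0.440, and with library size alone as the scale it was 0.542. Without the mice FAD_ABX_1151 and FAD_ABX_1482 it was 0.468. The points share libraries, and low counts limit the r of the weaker genes.

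**Figure D4:**
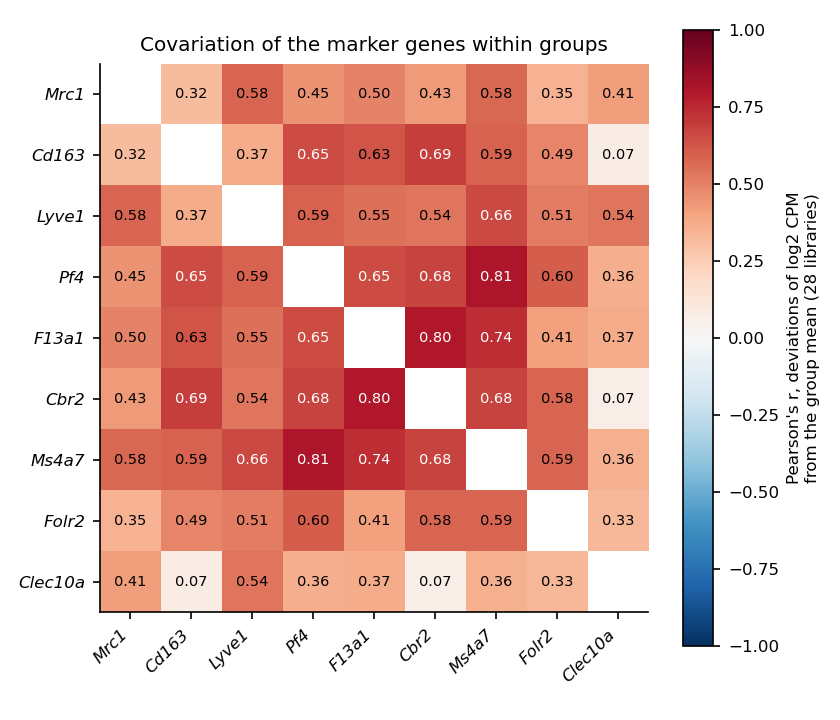
Pearson's r of each of the 36 pairs of markers over the 28 libraries, computed on log2 CPM minus the group mean, as the number and colour of each square. All pairs are above 0, with Pf4 and Ms4a7 (0.81) and F13a1 and Cbr2 (0.80) the highest and Clec10a the lowest row.

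The same within-group values were set against the other 15289 genes. The 3 genes most like Mrc1 were Pla2g2d (r = 0.758), Tgfbi (0.744) and Edc3 (0.724). Those most like Lyve1 were Cd38 (0.816), Clec4n (0.773) and Cd300a (0.729), and those most like Pf4 were Pla2g2d (0.771), Clec4n (0.722) and Timd4 (0.713). F13a1 went with Timd4 (0.780), Zfp410 (0.754) and Mrm2 (0.709), Cbr2 with Gnmt (0.765), Zfp410 (0.746) and Sertad1 (0.738), and Ms4a7 with Pla2g2d (0.787), Pla2g7 (0.740) and Sirpb1b (0.727). For Cd163 these genes were Plbd1 (0.748), Sertad1 (0.746) and Sirpb1b (0.715), for Folr2 they were 6330403K07Rik (0.754), Ccl8 (0.699) and Slfn2 (0.688), and for Clec10a they were Esrra (0.716), Ankra2 (0.704) and Csf2rb2 (0.697). Among the 100 genes most like each marker were 2 (Cd163) to 8 (Pf4, F13a1 and Folr2) of the 34 other border-associated macrophage genes, which are 0.222% of the genes compared. None of the 9 microglia markers was among the 100 of any of the 9. These are descriptions over 28 libraries that share depth and preparation.

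Markers of other cells were summed in the same libraries. The summed level of 8 monocyte genes was 6.76 to 8.32 CPM in SPF WT, 3.71 to 16.6 CPM in GF WT and 3.61 to 8.79 CPM in ABX WT mice. It was 20.3 to 42.5 CPM in SPF 5xFAD, 9.29 to 34.3 CPM in GF 5xFAD and 15.6 to 55.3 CPM in ABX 5xFAD mice, highest in the mice FAD_ABX_1455 and FAD_ABX_1452, which also had the highest marker sums. The monocyte sum was thus higher in 5xFAD than in WT mice under SPF and ABX conditions, without overlap, as the marker sum was, and its part in the marker levels was not tested. Of 6 monocyte genes tested, 2 were called higher and 0 lower in 5xFAD mice under SPF conditions, where 4.57% of all genes were called. In GF mice 1 was called higher and 0 lower, where 15.6% of all genes were called. Under ABX 3 were higher and 1 lower, where 14.4% of all genes were called. How the monocyte and marker sums go together from mouse to mouse was not tested, and single mice are named for their values only. Mouse FAD_SPF_1144 had the highest monocyte sum of the SPF 5xFAD mice (42.5 CPM) and the lowest marker sum (17.2 CPM). Mouse FAD_ABX_1453, with the third highest marker sum, had a monocyte sum of 22.4 CPM, below the 24.2 CPM of mouse FAD_ABX_1151. Of the monocyte genes, Ly6c2 was at 0 in all WT and all GF 5xFAD libraries and had reads in the SPF 5xFAD and ABX 5xFAD groups. Among GF 5xFAD mice the monocyte sum was highest in mouse FAD_GF_182, with 34.3 CPM, which had the lowest marker sum of its group. Genes of the choroid plexus epithelium, a tissue in which some border macrophages live, summed to 0.0407 to 35.0 CPM in SPF WT mice (median 11.6). In GF WT mice their sum was 0.0620 to 0.429 CPM and in ABX WT mice 0.0988 to 0.687 CPM. The 5xFAD mice had 0.590 to 5.16 CPM under SPF, 0 to 1.55 CPM under GF and 0 to 38.1 CPM (median 2.25) under ABX conditions. Of the 3 choroid plexus genes tested, 1 was called higher in ABX 5xFAD than in ABX WT mice, where 14.4% of all genes were called. Their part in the marker levels was not tested. Sums of 7 meningeal fibroblast genes stayed at or below 2.14 CPM and those of 6 erythrocyte genes at or below 0.912 CPM in all libraries, and those of 6 T cell genes at or below 3.20 CPM. The sums of dendritic cell (11.8 to 33.6 CPM), B cell (22.4 to 51.9 CPM), blood endothelial (10.4 to 54.0 CPM), astrocyte (167 to 318 CPM), oligodendrocyte (150 to 240 CPM) and neuron genes (0.415 to 20.0 CPM) had group ranges that overlapped between ABX WT and ABX 5xFAD mice. Of the 5 dendritic cell genes tested, 2 were called higher in ABX 5xFAD than in ABX WT mice, where 14.4% of all genes were called. Between ABX and GF 5xFAD mice 2 of the 5 were called higher, where 10.6% of all genes were called. The dendritic cell sum in ABX 5xFAD mice was highest in the mice FAD_ABX_1452, FAD_ABX_1453 and FAD_ABX_1455, at 33.6, 33.1 and 28.2 CPM. These mice also had the highest marker sums, and the part of the dendritic cell sum in the marker levels was not tested. The sum of 6 mural cell genes was 0.560 to 1.95 CPM in ABX WT and 2.67 to 6.98 CPM in ABX 5xFAD mice, within 0.560 to 15.4 CPM over all libraries, and its part in the marker levels was not tested.

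**Figure D5:**
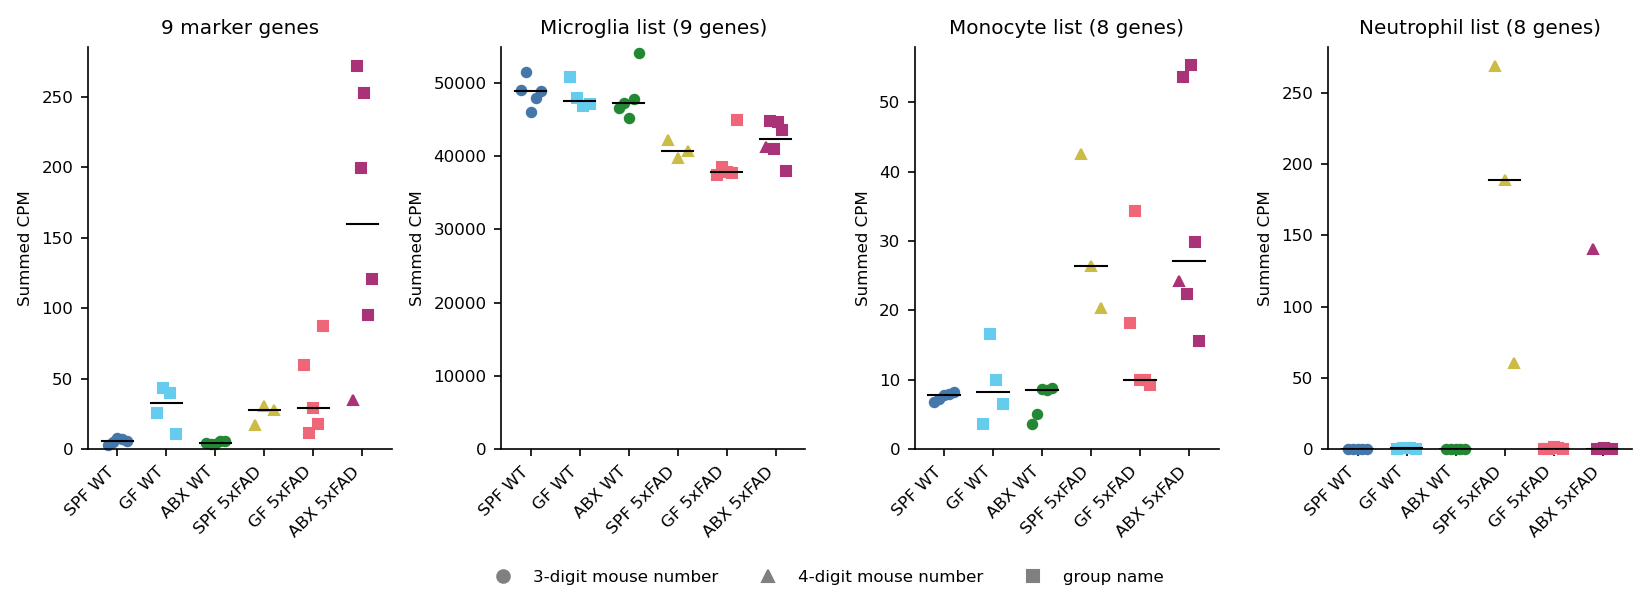
Summed CPM of the 9 markers and of lists of microglia, monocyte and neutrophil genes in each library, by group, with the median as a line and the form of the description label as the point shape. The microglia sum stays between 37373 and 54025 CPM, with all WT libraries above all 5xFAD libraries, and the neutrophil sum is above 60 CPM only in the 4 libraries with a 4-digit mouse number.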

How the data were processed

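RNA of sorted hippocampal microglia from 28 mice was amplified from low input with a template-switching kit, tagmented and read as single 50-base reads without strand. Per the labels and the study's methods, the authors used CASAVA 1.8.2, FastQC 0.11.8, STAR 2.7.2 and featureCounts 1.6.2 on GRCm38 with GENCODE M21, and deposited whole-number read counts per gene with no normalization. Their own comparisons used limma 3.40.6 and edgeR 3.26.7. The processing notes list a human build, while the coordinates of the deposited table are those of the mouse annotation.

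From the counts, 92 spike-in entries were set aside and genes were filtered with filterByExpr (minimum count 10, minimum total 15), which left 15298 of 48587. Counts were scaled by TMM and fitted in edgeR 4.0.16 (R 4.3.3) with 1 term for each of 6 groups, the quasi-likelihood test and Benjamini-Hochberg adjustment, at a threshold of 0.05. CPM are counts-per-million of the TMM-scaled library total. A group at 0 reads was given a floor of 3 reads over the group, and groups of 1 to 3 reads a ratio with an exact 95% Poisson interval, both on reads pooled over the group per pooled library total. Correlations used log2 CPM with a prior count of 2. Alternatives were library size alone, no filter, DESeq2 1.42.0, limma 3.58.1 voomWithQualityWeights, only the groups compared, no adjustment, and each mouse left out. Scripts were tested on simulated data. Replicates are mice as labelled.

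The members and gene lists were chosen with earlier results of these data known. Some genes of the cell type lists are not reported here. All 9 markers were named. Of the 35 other genes, those past the threshold were named, at most the 6 with the largest absolute log2 fold change per comparison, and for each marker the 3 genes of highest Pearson's r. Depth was 14441610 to 29977395 reads per library.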

Additional observations from a re-analysis of the deposited data

Results flagged for a closer look

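Values of 1 marker in 1 group of 4 to 6 mice were checked where a library held at least 10 reads. In 37 such sets, 1 library stood apart from the rest in 2 by Dixon's criterion. Both sets entered the check only through the library that stood apart, with 11 reads of F13a1 and 10 reads of Folr2. A chance rate of about 1 in 20 therefore does not apply to these low counts, and nothing is read from the 2. F13a1 was at 0.422 CPM in mouse WT_SPF_925, with the next library at 0.0815 CPM. Folr2 was at 0.536 CPM in mouse WT_GF_230, with the next at 0.062 CPM.

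For 6 of the other border-associated macrophage genes named above, the 5xFAD effect differed between ABX and GF mice by the interaction term of edgeR's quasi-likelihood test, and in each it was larger in ABX mice. Over all genes 1.76% were called in this comparison. The list was chosen with results of these data known, and 5 of the 6 genes, all but Cd38, had 0 reads in all ABX WT libraries. Over the whole list, the 9 calls became 5 without mouse WT_GF_229, WT_ABX_910, WT_ABX_911 or FAD_GF_185. The adjusted p was 0.00685 for Mgl2, 0.0104 for Timd4, 0.0183 for Cd209f, 0.0293 for Clec12a, 0.0421 for Pla2g2d and 0.0452 for Cd38.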

How the results depend on the processing

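No paired analysis was possible because the mouse numbers are unique and shared by no 2 groups. No call of the 9 markers reversed its direction, but some of their fold changes that were not called changed sign. For Folr2 between ABX and SPF 5xFAD mice, the log2 fold change ran from -1.06 to 1.39, with the negative value only in the fit of 1 label form, where the ABX group is the single mouse FAD_ABX_1151, and for Mrc1 and Cd163 between GF 5xFAD and GF WT mice, from -0.73 to 0.10 and from -0.32 to 1.51. The r of Clec10a with Cbr2 was -0.019 without the mice FAD_ABX_1151 and FAD_ABX_1482. The 9 marker calls in ABX mice held under all alternatives. The cause of the other shifts was not tested.

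For the 9 markers, the GF genotype count (0) was 1 with DESeq2, with only the groups compared or with 1 label form, 3 unadjusted and 0 to 1 with a mouse left out. The SPF genotype count (6) was 4 to 6 with a mouse left out. GF against SPF WT (6) was 2, of 2 tested, with only the groups compared and 3 to 6 with a mouse left out. ABX against SPF WT (0) was 1 unadjusted. ABX against GF WT (5) was 1 with voomWithQualityWeights, 2, of 2 tested, with only the groups compared and 5 to 7 with a mouse left out. GF against SPF 5xFAD (0) was 1 unadjusted. ABX against SPF 5xFAD (0) was 1 with DESeq2, 7 with voomWithQualityWeights, 1 without the mice FAD_ABX_1151 and FAD_ABX_1482, 8 unadjusted and 0 to 1 with a mouse left out. ABX against GF 5xFAD (1) was 4 without a filter, 2 with DESeq2, 6 with voomWithQualityWeights, 0 with only the groups compared, 4 without the mice FAD_ABX_1151 and FAD_ABX_1482, 6 unadjusted and 1 to 5 with a mouse left out. The interactions were 1 with DESeq2 and 7 unadjusted for GF against SPF (0), 3 unadjusted for ABX against SPF (0), and 3 with voomWithQualityWeights and 6 to 8 with a mouse left out for ABX against GF (7).

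For the 34 other genes, the SPF genotype count (10) was 19 with voomWithQualityWeights, 22 unadjusted and 5 to 12 with a mouse left out. The GF genotype count (8) was 16 unadjusted and 6 to 12 with a mouse left out, and the ABX genotype count (24) was 24 to 25. GF against SPF WT (5) was 3 with library size alone, 8 with voomWithQualityWeights or only the groups compared, 9 without the mice FAD_ABX_1151 and FAD_ABX_1482, 17 unadjusted and 1 to 8 with a mouse left out. ABX against SPF WT (0) was 1 unadjusted. ABX against GF WT (11) was 6 with voomWithQualityWeights or only the groups compared, 21 unadjusted and 4 to 12 with a mouse left out. GF against SPF 5xFAD (4) was 8 unadjusted and 0 to 5 with a mouse left out. ABX against SPF 5xFAD (0) was 7 with voomWithQualityWeights, 3 without the mice FAD_ABX_1151 and FAD_ABX_1482, 17 unadjusted and 0 to 3 with a mouse left out. ABX against GF 5xFAD (9) was 14 with library size alone or without a filter, 2 with only the groups compared, 5 with 1 label form, 17 unadjusted and 6 to 12 with a mouse left out. The interactions were 7 unadjusted for GF against SPF (0), 11 unadjusted for ABX against SPF (0), and 5 with only the groups compared, 19 unadjusted and 5 to 11 with a mouse left out for ABX against GF (9).

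The restriction to 1 label form was chosen after seeing the data. Library size alone shifted the median log2 fold change of all genes by -0.12 between GF 5xFAD and GF WT mice and by less than 0.1 elsewhere. Groups of 3 to 6 mice, and the low counts of markers other than Mrc1 in SPF WT and ABX WT libraries, limit what can be called there.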
